A study of Gallus gallus with 2 samples.

Results

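Among the CTCF peaks of 5 day old chicken red blood cells, 373 stood alone when set against the peak list from 10 day old cells. They are the 5 day peaks on assigned chromosomes with a score of 20 or more and no 10 day peak starting within 10 kb of their own start. They were drawn from 2919 eligible peaks, those that met the score and chromosome limits, out of 5830 peaks in the whole 5 day list, so 12.8% of the eligible peaks were isolated (95% interval 11.6 to 14.04). The score is the whole number the authors deposited for each peak, and the sources used here give neither its meaning nor its scale. The peaks were chosen by their 5 day score and by the 10 day positions, so neither is a finding about them, and both are given as a description.

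The study mapped CTCF in Gallus gallus by chromatin immunoprecipitation with a Millipore antibody, followed by sequencing, at 2 ages. There was 1 library per age, of red blood cells labelled 5 day old and 10 day old, and the labels do not say whether days were counted before or after hatching, nor how many animals were pooled. The growth and treatment fields of both libraries describe cultured, stimulated mononuclear blood cells in place of red cells, and no expression data are at hand to check the cell type. The 10 day list held 21358 peaks, with scores of 22 to 3381, and the 5 day list had scores of 13 to 738. Read depth is unknown, there is no replicate at either age, and no test compares the ages. Intervals below are exact, treat peaks as independent and cover counting error within these libraries only.

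CTCF is a DNA-binding protein with many zinc fingers that occupies insulators and boundaries of chromatin domains. Together with cohesin it anchors chromatin loops, and much of its binding is known to be shared between cell types, while a smaller part differs with cell type and stage. CTCF was first described as a factor that binds the chicken Myc gene, and the insulator at the beta-globin cluster is among the best known sites of its action in red cells. Absence from a peak list is not absence of binding, since a site below the list's threshold would be missed.

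Isolated peaks were mostly low scoring, but some ranked high. Their scores ran from 20 to 76, with a median of 26 and quartiles of 22 and 34. The 2237 eligible peaks overlapped by a 10 day peak by at least 1 bp, called shared here, had a median score of 38 (quartiles 28 and 53). The remaining 309 eligible peaks, with a 10 day start within 10 kb but no overlap, are called near, and their median was 26 (quartiles 22 and 33). Isolated and near peaks thus had the same median score, both below that of the shared peaks. Of the 373, 41 had the lowest score allowed, 20, and 21 had a score of 50 or more.

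The isolated share fell with each step up in score. It was 24.1% (20.8 to 27.6) of the 631 peaks scoring 20 to 24 and 18.1% (14.7 to 21.9) of the 465 scoring 25 to 29. It was 11.2% (8.25 to 14.7) of the 393 scoring 30 to 34 and 9.89% (7.82 to 12.3) of the 728 scoring 35 to 49. Among the 702 peaks scoring 50 or more it was 2.99% (1.86 to 4.54). Near peaks fell with score as well, from 20.1% at 20 to 24 to 2.42% at 50 or more. Isolated peaks outnumbered near peaks in each of these ranges (by 72 to 40 at 35 to 49, for example) except from 30 to 34, where they numbered 44 and 55. Below the limit the share was higher again: 36.9% (34.1 to 39.7) of the 1204 assigned peaks scoring 15 to 19 and 41.5% (38.4 to 44.7) of the 997 scoring 13 or 14. Over all 5120 assigned 5 day peaks, 1231 were isolated, which is 24.04%.

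**Figure D1:**
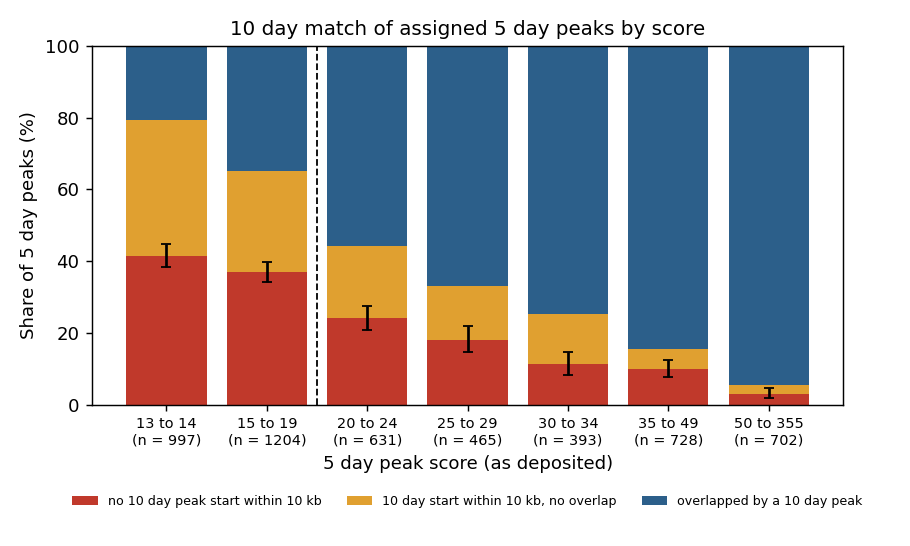
Share of assigned 5 day peaks (%, vertical axis) that were isolated, near or shared, by deposited 5 day score (horizontal axis), with exact 95% intervals on the isolated share and the score limit as a dashed line. The isolated share falls from 41.5% at scores 13 to 14 to 2.99% at 50 and above.

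Both limits of the selection cut through a continuous range. At a score of 20, 41 of 137 assigned peaks were isolated, and at a score of 19, just outside, 58 of 175 were. The 2 isolated peaks closest to the distance limit lay 10046 bp (chromosome 6, score 28) and 10123 bp (chromosome 5, score 35) from a 10 day start. The 2 eligible peaks just inside that distance, and so not members, lay 9958 bp (chromosome 21, score 53) and 9805 bp (chromosome 4, score 23) from one. The last 1000 bp before the limit and the first 1000 bp beyond it held 18 eligible peaks each.

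The highest scoring isolated peak, with a score of 76, lay on chromosome 3 between 58210535 and 58210933 and ranked 153 among all assigned 5 day peaks. (All positions count the first base as 1, and the sources used here name no genome build.) Its nearest 10 day peaks started 72148 bp to the left (score 34) and 54809 bp to the right (score 23), and the left one matched a 5 day peak with a score of 65. The next, on chromosome 6 at 27346997 to 27347395 (score 75, rank 165), was less alone. Another 5 day peak with a score of 26 started 2056 bp away, and 10 day peaks lay 11720 bp to the left (score 25) and 41203 bp to the right (score 79). The 100 kb on either side of this site held 4 other 5 day peaks and 8 from the 10 day list.

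Of the 10 highest isolated peaks, 3 had no other 5 day peak within 100 kb on either side. The first, with a score of 72, spanned 47676057 to 47676455 of chromosome 1, with 10 day peaks 15931 bp to the left (score 27) and 117537 bp to the right (score 86). The second, scoring 70, spanned 88731993 to 88732391 of the same chromosome, between 10 day peaks 61549 bp to the left (score 22) and 18125 bp to the right (score 31). The third, scoring 66, spanned 6271284 to 6271682 of chromosome 2, and the 10 day list had a peak 119424 bp to the left (score 32) and one 29794 bp to the right (score 29). Each of these 3 sites had 2 peaks of the 10 day list within 100 kb.

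The others stood in fuller surroundings. On chromosome 10 at 7784719 to 7785117 (score 70) the flanking 10 day peaks were 44042 bp and 54789 bp away, and the latter was shared with a 5 day peak scoring 47. On chromosome 1 at 52566855 to 52567253 (score 69) 4 other 5 day peaks lay within 100 kb, none of them shared. On chromosome 20 at 1023114 to 1023512 (score 67) 11 peaks of the 10 day list lay within 100 kb, the nearest 11820 bp away with a score of 26. On chromosome 19 at 5679655 to 5680053 (score 63) the nearest 10 day peak was 17025 bp away (score 29). The fullest surroundings were those on chromosome 20 at 10511971 to 10512369 (score 62), with 18 peaks of the 10 day list and 8 other 5 day peaks within 100 kb. A 5 day peak with a score of 19 lay 4501 bp from it. High scoring isolated peaks were therefore found in stretches both sparse and dense in listed peaks.

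**Figure D2:**
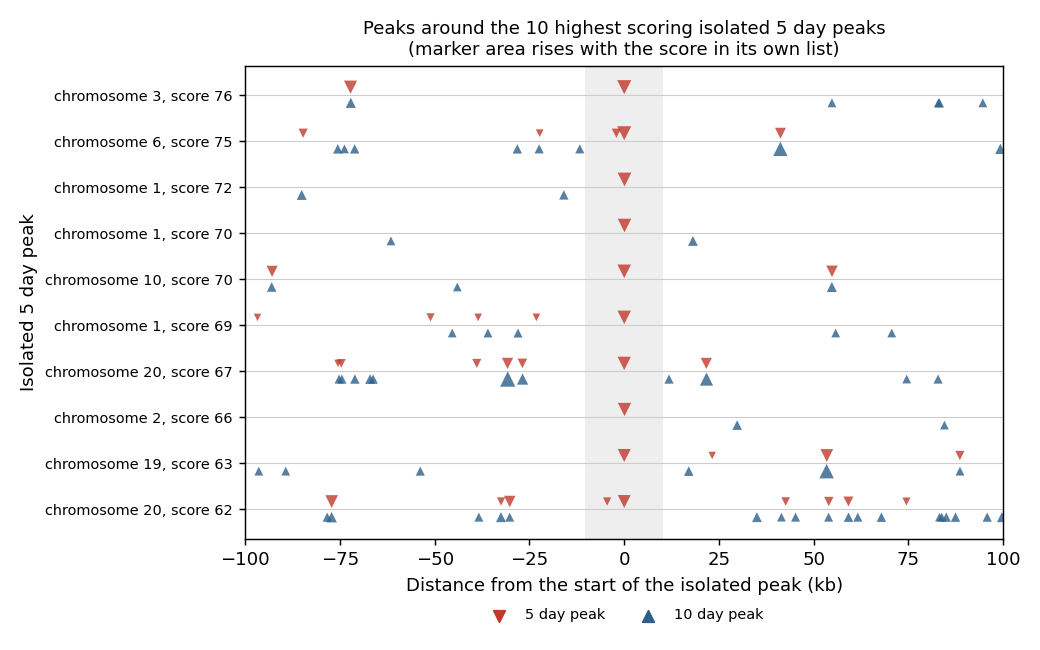
Peaks of the 5 day list (red, upper) and the 10 day list (blue, lower) within 100 kb of the 10 highest scoring isolated 5 day peaks; the horizontal axis is the distance in kb from the start of the isolated peak, and marker area rises with the score in its own list. The grey band is the 10 kb on either side that holds no 10 day start, and the number of 10 day peaks outside it runs from 2 to 18.

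Isolated peaks were found on all 29 assigned chromosomes with eligible peaks, and their share of the eligible peaks was nearly level from class to class. It was 13.1% (11.2 to 15.1) on the macrochromosomes 1 to 5, where 161 of 1232 eligible peaks were isolated. It was 12.6% (9.74 to 15.8) on the intermediate chromosomes 6 to 10 (61 of 486). It was 12.4% (10.4 to 14.5) on the microchromosomes, 11 and above (130 of 1051). On Z it was 14% (8.88 to 20.6), with 21 of 150. The 4 intervals overlapped, and the same was true within 2 score ranges. Among peaks scoring 20 to 29 the share ran from 18.99% on Z to 22.9% on the intermediate chromosomes, and among those scoring 30 or more from 5.78% on the intermediate chromosomes to 8.45% on Z.

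By single chromosome the interval of the isolated share held the overall 12.8% on 28 of 29. The exception was chromosome 26, with 2 isolated peaks among 57 eligible (3.51%, 0.428 to 12.1). No allowance was made for looking at 29 intervals. Of its length, 39.9% lay more than 10 kb from every 10 day start, the smallest part of any chromosome, against 69.7% over all assigned chromosomes. On chromosome 19, where that part was next smallest (53.5%), the isolated share was 11.6%. A link between the 2 measures was not tested. Chromosome 27 had the highest share among the 28 chromosomes with at least 20 eligible peaks (7 of 37, 18.9%, 7.96 to 35.2). Chromosome 1 held the most isolated peaks, 53 of 386 eligible. Chromosome 16 had 2 isolated peaks among 4 eligible, and chromosome 22 had 1 among 26.

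**Figure D3:**
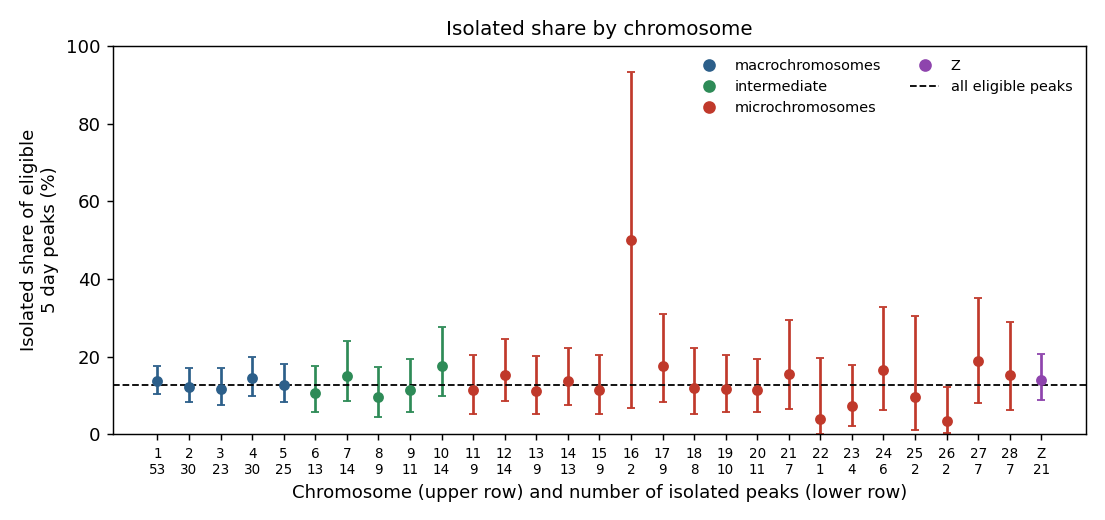
Isolated share of eligible 5 day peaks (%, vertical axis) for each chromosome (horizontal axis, with the number of isolated peaks under each name), with exact 95% intervals; the dashed line is the share over all eligible peaks. The points lie near 12.8% on most chromosomes, and the widest interval is that of chromosome 16, with 4 eligible peaks.

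Per length, the isolated peaks were densest on the small chromosomes, as the shared ones were. Isolated peaks numbered 0.257 per Mb of macrochromosome, 0.395 per Mb of intermediate chromosome, 0.739 per Mb of microchromosome and 0.282 per Mb of Z, with length counted to the last peak of either list. Microchromosomes thus held 2.87 times the macrochromosome density of isolated peaks (2.26 to 3.64) and, for shared eligible peaks, 2.92 times (2.65 to 3.21). The selection leaves room only beyond 10 kb from every 10 day start, and this room made up 71.5% of the macrochromosomes, 61.1% of the microchromosomes and 78.3% of Z. Counted per Mb of that room, the ratio of micro- to macrochromosomes was 3.36 (2.65 to 4.26), while Z and the macrochromosomes had 0.360 isolated peaks per Mb each. By score, microchromosomes held 42 of the 152 isolated peaks scoring 20 to 24, 30 of the 84 scoring 25 to 29, 25 of the 44 scoring 30 to 34, 22 of the 72 scoring 35 to 49 and 11 of the 21 scoring 50 or more, with no steady trend. At scores of 30 or more they held 58 of the 137 isolated peaks and 701 of all 1823 eligible ones. The density ratio of micro- to macrochromosomes per length was nevertheless higher with each higher score limit: 2.87 at 20, 3.52 at 25 and 3.68 at 30. These sets of peaks are nested, and the intervals of the ratios overlapped. The balance of all eligible peaks moved the same way. Micro- and macrochromosomes held 1051 and 1232 of them at scores of 20 or more, and 701 and 757 at 30 or more. No isolated peak on Z scored above 42.

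The spaces between neighbouring 10 day peaks show where the isolated peaks sat. Between starts more than 20 kb apart there were 12314 such spaces, of which 351 (2.85%) held an isolated peak. The 351 had a median length of 96842 bp, and those without one had a median of 54645 bp. In all, 371 isolated peaks lay in these spaces and 2 lay beyond the outermost 10 day peak of their chromosome. A longer space offers more room, and per Mb of room the density of isolated peaks went from 0.868 in spaces of 20 to 50 kb through 0.625 and 0.492 to 0.304 in those over 200 kb. On microchromosomes it was 2.25 per Mb (1.59 to 3.11) in spaces of 20 to 50 kb, 1.27 (0.933 to 1.70) in those of 50 to 100 kb, 1.004 (0.695 to 1.40) in those of 100 to 200 kb and 0.560 (0.280 to 1.002) in longer ones. On macrochromosomes it was 0.462 (0.278 to 0.722) in spaces of 20 to 50 kb, 0.377 (0.276 to 0.502) and 0.407 (0.316 to 0.515) in the next ranges and 0.239 (0.159 to 0.346) in those over 200 kb, and the intervals of the first and last overlapped. Unmappable sequence and assembly gaps were not removed from the room.

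Most occupied spaces held 1 isolated peak, 16 held 2, and 2 held 3. On chromosome 14, 3 isolated peaks stood between 10 day starts at 4933084 and 5127285, which are 194201 bp apart. They began at 4953593, 5025374 and 5051525 and scored 61, 53 and 34, respectively. On Z, 3 stood between 10 day starts at 1495440 and 1641649, beginning at 1514951, 1555088 and 1599883 with scores of 36, 21 and 20. The chromosome 14 trio included peaks well above the median isolated score, and the Z trio did not apart from its first. Both stretches were picked after their values were seen.

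The nearest other isolated peak lay a median of 607562 bp away (quartiles 184010 and 1501946) for the 372 that had one on their chromosome. From shared peaks, the nearest isolated peak was a median of 820006 bp away, and from near peaks 554916 bp. Another isolated peak started within 500 kb of 48.5% of isolated peaks (43.3 to 53.7) and of 47.6% of near peaks (41.9 to 53.3). For shared peaks the share was 39.4% (37.4 to 41.5). The intervals of isolated and near peaks thus overlapped at this distance. Microchromosomes, where isolated peaks were densest, held 136 of the 309 near, 130 of the 373 isolated and 785 of the 2237 shared peaks. The shares are pooled over chromosome classes and are not given by class. Within 20 kb the shares were 4.29% (2.47 to 6.87) for isolated, 2.59% (1.12 to 5.04) for near and 1.43% (0.980 to 2.01) for shared peaks. The selection keeps shared and isolated peaks about 10 kb apart, which bears on the shorter distance, and no test was made. Another isolated peak lay within 10 kb of 8 of the 373 (2.14%, 0.930 to 4.18), and one lay within 10 kb of 0.971% of near peaks (0.201 to 2.81). A near peak has a 10 day start within 10 kb, which leaves less room there for an isolated peak. The selection thus partly sets this contrast. The 8 isolated peaks formed 4 pairs. Isolated peaks that neighbour each other are counted from both sides. The intervals of the isolated shares at 10, 20 and 500 kb treat them as independent and may be too narrow. On Z, peaks with scores of 42 and 25 started 8131 bp apart between 63710066 and 63718595. On chromosome 12, scores of 36 and 30 stood 3544 bp apart between 1679688 and 1683630, and on chromosome 6, scores of 23 and 21 stood 1200 bp apart between 28068716 and 28070314. On chromosome 1, peaks at 52931544 to 52931942 (score 25) and 52931845 to 52932243 (score 20) overlapped by 98 bp, so they share sequence, and whether they are 1 site or 2 was not tested; they are counted as 2 peaks here. Of 1042 windows of 1 Mb, 767 held no isolated peak, 203 held 1, 50 held 2, 18 held 3 and 4 held 4.

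The 4 fullest windows differed in how much else they held. On chromosome 1 from 52000001 to 53000000, 4 of 7 eligible peaks were isolated and 2 were shared. They include the peak scoring 69, a peak scoring 44 at 52198477 to 52198875 and the overlapping pair. The other 3 windows were on chromosome 19 from 5000001 to 6000000, chromosome 21 from 4000001 to 5000000 and chromosome 27 from 3000001 to 4000000. Their isolated peaks were 4 of 13, 4 of 14 and 4 of 14 eligible peaks, beside 8, 9 and 9 shared ones. The chromosome 1 window therefore had more isolated than shared eligible peaks, and the other 3 had more shared ones.

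Isolation from the 10 day list did not mean isolation from other 5 day peaks. Within 10 kb of 26 isolated peaks (6.97%, 4.60 to 10.0) there was another 5 day peak of any score. Around isolated peaks there were 27 such neighbour relations, counted from each isolated peak. Of these, 8 were with another isolated peak, 11 with a peak below the score limit that was itself beyond 10 kb of any 10 day start, 7 with a near peak of any score and 1 with a shared peak. The selection itself removes most shared neighbours, so the groups were set side by side for unmatched 5 day peaks, those not overlapped by a 10 day peak. It also bears on these in part, since an unmatched peak close to a 10 day peak is less likely to lie next to an isolated one. An unmatched neighbour lay within 10 kb of 6.97% of isolated peaks (4.60 to 10.0), 13.2% of shared peaks (11.8 to 14.7) and 19.1% of near peaks (14.9 to 23.9). The interval for isolated peaks lay below both others, and no test was made of a difference that the selection partly sets.

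The nearest shared peak was a median of 78902 bp away (95% interval of the median 67557 to 98652), with quartiles of 32421 and 191982 bp. It started within 20 kb of 37 isolated peaks, within 50 kb of 133 (35.7%) and within 100 kb of 206 (55.2%), and 27 had none within 500 kb. The smallest distance was 9719 bp, on chromosome 6 at 24820728 to 24821126 (score 28). Distances were shortest on microchromosomes, with a median of 105091 bp on macrochromosomes, 95536 bp on intermediate chromosomes, 43729.5 bp on microchromosomes and 142875 bp on Z. The Spearman correlation of score with distance to the nearest shared peak was 0.02 across the 373 peaks, and with distance to the nearest 10 day peak 0.06. Both are given as descriptions, since the peaks share a library.

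To set this beside other 5 day peaks, the nearest shared peak beyond 10 kb was taken for all. Its median distance was 80290 bp for isolated peaks (67995 to 101630), 62422 bp for near peaks (53979 to 77238) and 68444 bp for shared peaks (63063 to 75069). The intervals overlapped. By class the intervals overlapped too: isolated and shared peaks had medians of 105091 bp (83289 to 136060) and 91878 bp (84066 to 101532) on macrochromosomes, of 108059 bp (56385 to 145970) and 67747 bp (54567 to 81478) on intermediate chromosomes, and of 43729.5 bp (34988 to 66271) and 47862 bp (43881 to 53003) on microchromosomes. On Z they were 142875 bp (58041 to 357630) and 135888 bp (97974 to 161239). Overlap of intervals does not show that the medians of isolated and of shared peaks were alike, and their difference was not tested. The selection used 10 day positions, which also define shared peaks, so it may bear on these distances beyond 10 kb too. On the intermediate chromosomes, with 61 isolated peaks, the precision was low. Medians do not describe the shortest distances. From 10 to 20 kb there were 4.96 shared 5 day peaks per Mb around isolated peaks, 9.39 around near peaks and 11.8 around shared peaks. From 10 to 50 kb there were 6.07, 8.82 and 9.04, in that order, and no test was made.

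**Figure D4:**
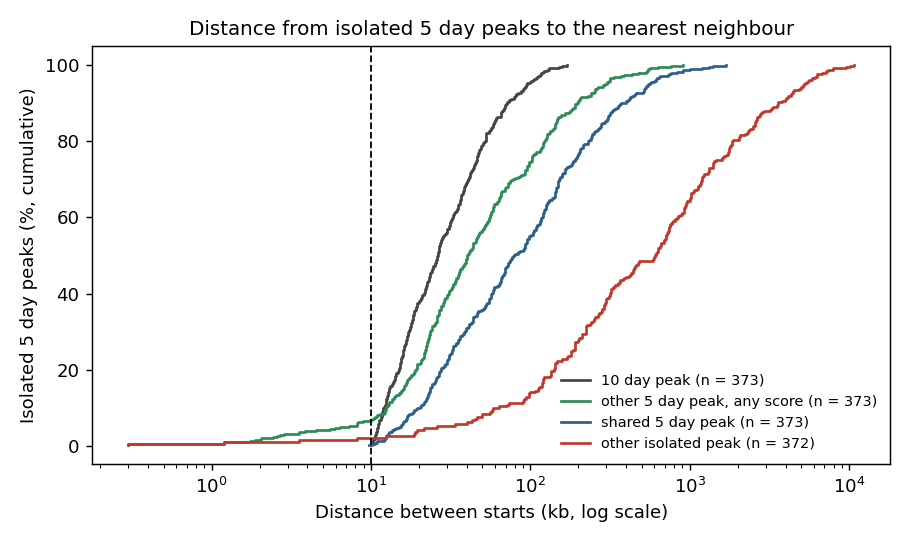
Cumulative share of isolated 5 day peaks (%, vertical axis) by distance between starts in kb (horizontal axis, log scale) to the nearest 10 day peak, other 5 day peak, shared 5 day peak and other isolated peak; the dashed line is the 10 kb limit of the selection. The medians are 26273, 40137, 78902 and 607562 bp, in that order.

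No shared peak lay within 1 Mb of 5 isolated peaks. They were on chromosome 7 at 9095041 to 9095439 (score 21), 1695968 bp from a shared peak, and on Z at 42541782 to 42542180 (score 26), 1393419 bp from one. Chromosome 1 had such a peak at 129322747 to 129323145 (score 24, 1325180 bp). The last pair lay on chromosome 2 at 146249662 to 146250060 (score 34, 1202321 bp) and 146048631 to 146049029 (score 26, 1001290 bp), 201031 bp apart. Such remoteness was not particular to isolated peaks. Another shared peak was lacking within 1 Mb of 38 of the 2237 shared peaks and 3 of the 309 near peaks, beside 5 of the 373 isolated ones. Distance from shared peaks and distance from 10 day peaks were related but not the same thing. Their Spearman correlation was 0.36 across the 373 isolated peaks, given as a description. The chromosome 7 site, for example, had a 10 day peak 10826 bp away.

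The 10 day list came closest to isolated peaks at a median of 26273 bp (quartiles 15944 and 46054). The farthest was on chromosome 3 at 104264488 to 104264886 (score 22), 169746 bp from any 10 day start, in a space of 400531 bp between 10 day peaks. It was followed by chromosome 1 at 56212912 to 56213310 (score 39, 157736 bp), chromosome 11 at 6455926 to 6456324 (score 20, 152062 bp), the Z site above (131883 bp) and chromosome 14 at 13550340 to 13550738 (score 33, 131281 bp). The chromosome 1 site lay between 10 day peaks scoring 27 and 98, and the chromosome 11 site had a 5 day neighbour 2845 bp away with a score of 16. In all, 17 isolated peaks had no 10 day peak within 100 kb and 140 had one within 20 kb. From 10 to 100 kb, no 10 day start was found for 4.56% of isolated, 3.44% of shared and 2.91% of near peaks. The nearest 10 day start beyond 10 kb lay a median of 26273 bp from isolated peaks (23580 to 28412). From shared peaks it was 24437 bp (23572 to 25385) and from near peaks 21423 bp (19193 to 23355). No test was made.

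The 10 day peak nearest to an isolated peak was usually unmatched itself. Its score had a median of 25 (quartiles 23 and 31), and over all 20211 assigned 10 day peaks the median was also 25 (quartiles 23 and 29). It was shared with the 5 day list for 98 of 373 isolated peaks (26.3%, 21.9 to 31.1), whereas 14.2% of all assigned 10 day peaks were shared. This was not particular to isolated peaks. From 10 to 100 kb, a mean of 1.05 of 4.43 peaks of the 10 day list was shared around isolated peaks. Around near peaks it was 1.35 of 5.64, and around shared peaks 1.31 of 4.95.

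Beyond 50 kb, the surroundings of isolated peaks held about as many peaks as those of shared ones, and fewer than those of near ones. From 10 to 50 kb they held fewer than those of shared ones too, and in the 5 day list that gap was in shared peaks (6.07 against 9.04 per Mb). Unmatched 5 day peaks numbered 5.26 and 5.08 per Mb there. Shared peaks are defined by 10 day positions, which the selection used, so the selection may bear on this gap beyond 10 kb too. Its part was not tested. From 10 to 100 kb on either side there was a median of 4 peaks of the 10 day list around isolated peaks (quartiles 2 and 6) and of 4 around shared peaks (quartiles 3 and 7). As densities, the 10 day list held 23.5 peaks per Mb at 10 to 50 kb from isolated peaks and 28.8 from shared peaks, 25.5 and 26.5 at 50 to 100 kb, and 24.8 and 25.5 at 100 to 200 kb. The 5 day list held 11.3 and 14.1 per Mb at 10 to 50 kb, 10.1 and 10.3 at 50 to 100 kb, and 9.42 and 9.37 at 100 to 200 kb. At all of these distances both lists were denser around isolated peaks than over the assigned chromosomes as a whole, which held 19.6 peaks per Mb at 10 days and 4.97 at 5 days. Microchromosomes held 34.9% of the isolated peaks on 17.1% of the length, and their part in this excess was not tested. The selection emptied the first 10 kb of 10 day starts, and with them of most shared 5 day peaks. In that stretch lay 27 starts of the 5 day list, of which 1 was of a shared peak.

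**Figure D5:**
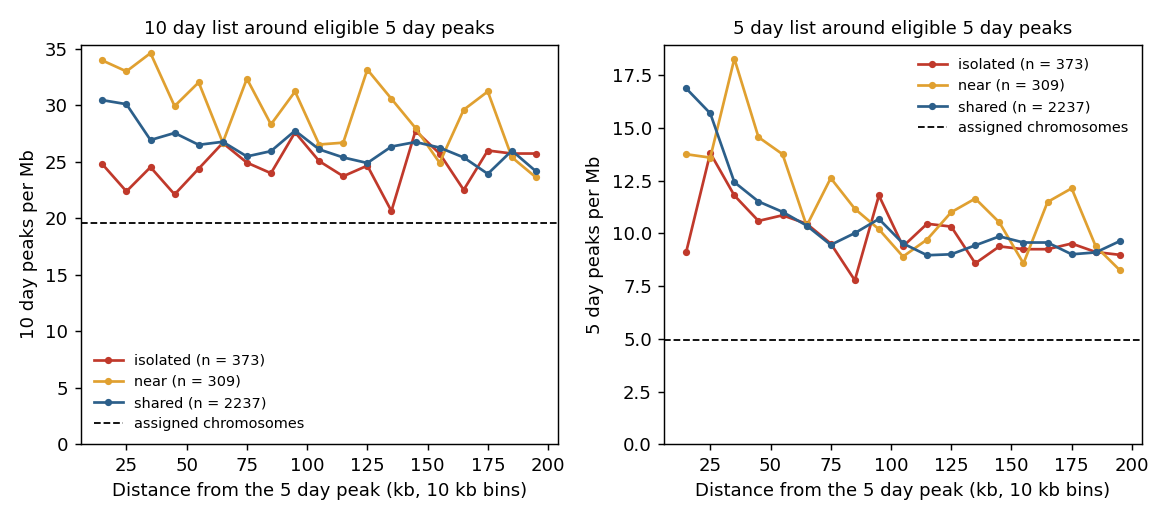
Peaks per Mb of the 10 day list (left) and 5 day list (right) in 10 kb bins, from 10 to 200 kb on either side of isolated, near and shared eligible 5 day peaks (horizontal axis, distance in kb); the dashed line is the density over assigned chromosomes. Around isolated peaks both lists stay above that line, and they run below the shared peaks in the first bins, at 24.8 against 30.5 per Mb at 10 days and 9.12 against 16.9 at 5 days from 10 to 20 kb.

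The reverse selection gave a larger share. Of the 20211 assigned 10 day peaks, 15405 (76.2%) had no 5 day start within 10 kb, with a list that is longer to begin with. Limited to scores of 33 or more, which left 3070 peaks and so came closest to the 2919 eligible at 5 days, 916 (29.8%, 28.2 to 31.5) had none. Their scores had a median of 36 and reached 70. This compares 2 lists of unequal length whose scores have no stated common scale, and the isolated share of either list depends on how long the other one is.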

How the data were processed

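Per the labels' protocols, DNA recovered with a CTCF antibody from 2 samples, 1 library per age, was read on a Genome Analyzer from Illumina. The authors deposited 1 peak list per library, with 6 columns, no header and a width of 399 bp for each peak. Column 5 is a score the authors deposited; its meaning is not given in the sources used here, nor are aligner, genome build, peak caller, threshold or control library. Read depth is unknown. Groups come from the age label. No gene table or genome known to be of the build of the peaks was at hand, so peaks were not placed on genes and no sequence was read.

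Distances run between starts. The selected peaks, and the measures, were chosen with earlier results of these data known. Peaks named are the 10 highest scoring, the 5 farthest from a shared and from a 10 day peak, the 3 windows of 1 Mb with the most isolated peaks (ties included) and the closest groups; others are marked. Shares have exact Clopper-Pearson 95% intervals, ratios exact conditional binomial ones, densities per room exact Poisson ones, and medians order-statistic ones. The functions for the selection, for overlap and for the room beyond 10 kb were tested on simulated data. Alternatives changed the score limit, the distance, the 10 day list, the overlap rule and the length used. Computation used scipy 1.17.1, pandas 2.3.3 and numpy 2.4.6 under Python 3.11.15, and figures matplotlib 3.10.9.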

Additional observations from a re-analysis of the deposited data

How the results depend on the processing

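Of 40 alternatives, 26 left a value within the interval of the reported one (for the number of peaks, within 1.5 times) and 14 did not. The number of isolated peaks and their share of eligible peaks depended on the limits by construction. They were 221 and 9.66% with a score of 25 or more, 137 and 7.52% with 30 or more, 1231 and 24.04% with no score limit, 233 and 7.98% with 20 kb, and 567 and 19.4% against the upper part of the 10 day list by score (at or above its median). A distance of 5 kb gave a share of 16.8% and a median distance to the nearest shared peak of 67450 bp. The density ratio of micro- to macrochromosomes was 2.60 with no score limit, 3.52 with a score of 25 or more and 3.68 with 30 or more. With no score limit 6.34% of isolated peaks had another within 10 kb. The causes were not tested. Under all alternatives tried the density ratio stayed between 2.32 and 3.68. No paired analysis was possible because neither age has a second library, and for the same reason none could be left out. Unknown depth limits any statement on absence from the 10 day list.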

Other observations

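Sequence left out of the selection also held 5 day peaks apart from the 10 day list. Of 440 peaks scoring 20 or more on random sequence and linkage groups, 30 (6.82%, 95% interval 4.65 to 9.59) had no 10 day start within 10 kb, against 12.8% of the eligible peaks on assigned chromosomes. Of these, 27 were among 413 on Un_random, with scores up to 34, and 3 were among 27 on the other such sequences, with scores up to 47. Distances on Un_random run across joined fragments, so a 10 kb distance there need not be a distance on a chromosome.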
